A study of Mus musculus with 24 samples.

Results

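Steroid hormones of the testis are made in Leydig cells, and 10 genes of this cell type were followed here in RNA-seq libraries from Thumpd1 knockout (KO) and wild-type (WT) mice. They were chosen by name, as the rows of the deposited table whose symbols are Star, Cyp11a1, Cyp17a1, Cyp21a1, Hsd3b1, Hsd3b6, Hsd17b3, Insl3, Lhcgr and Nr5a1, and all 10 were found among the 55450 genes. The 8 testes libraries came from 4 WT and 4 KO samples, numbered 1 to 4 and 5 to 8. Liver and cerebellum, with 4 libraries per genotype each, served as tissues without Leydig cells. The KO line was made by injecting Cas9 and guide RNAs against exons 1 and 4 of Thumpd1 into C57BL/6N eggs and was kept on a C57BL/6 background, and the controls were age-matched littermates. Mice were 6 to 12 weeks old and of either sex, and the labels give neither the age of a single animal nor its litter. The sex of the mice behind the liver and cerebellum libraries is not given here. The knockout was constitutive, so the data do not separate an effect inside Leydig cells from one that reaches them from elsewhere. The study describes the libraries of a group as biological replicates, while the labels name no animal for any library.

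Leydig cells lie between the seminiferous tubules and answer luteinizing hormone through the receptor Lhcgr. Star moves cholesterol into the mitochondrion, and Cyp11a1 cuts its side chain to give pregnenolone. The Hsd3b enzymes, Cyp17a1 and Hsd17b3 then carry the product to testosterone, while Cyp21a1 belongs to the adrenal route to corticosterone. Nr5a1 is the nuclear receptor that switches on most genes of the pathway, and Insl3 is a peptide hormone that Leydig cells secrete. Thumpd1 encodes an adaptor protein needed for the acetylation of cytidine in serine and leucine tRNAs.

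Total counts lay between 27273231 and 36621604 in the testes libraries and between 16353797 and 37889615 over the series. Thumpd1 stood at 24.3 CPM (counts-per-million) or more in every WT testes library and at 1.14 CPM or less in every KO library, so the genotype labels held. Some testes libraries were unusually alike: over genes, the median chi-square of a pair was 0.67 for WT replicates 3 and 4 and 0.69 for KO replicates 5 and 6, against 1.06 to 3.59 for the other pairs within a group. The mean chi-square of these pairs (2.31 and 3.39) was also below that of the other pairs, at 6.20 to 31.0. Whether a pair came from the same animal is not known from the labels. The libraries were kept apart, and results that change when each pair is summed are named below. Markers of other cell types of the testis also moved with genotype. Of 25 Sertoli cell markers tested, 19 were higher and 0 lower in KO, and their summed level ran from 1815 to 2062 CPM in WT and from 2330 to 3244 CPM in KO. Round spermatid markers were lower for 13 of 22, with sums of 3362 to 3401 CPM in WT and 2622 to 3121 CPM in KO. In bulk tissue, fewer cells of a type cannot be told apart from less RNA per cell, and all values below are relative to the whole testis.

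All 10 genes were well above the floor of 3 counts in each testes library, and the Leydig cell markers among them were abundant. Levels of different genes were compared per kilobase of exon, in CPM per kb. In WT testes Insl3 was highest at 893 ± 84.0 CPM per kb (SD, n = 4), followed by Cyp17a1 at 88.7 ± 3.65. Hsd3b1 at 37.4 ± 8.23 and Hsd3b6 at 36.7 ± 1.53 came next, with overlapping ranges. These were followed by a pair of early steps, Star and Cyp11a1, which overlapped each other, and then by Hsd17b3 and Nr5a1, which also overlapped. Lhcgr at 2.35 ± 0.131 CPM per kb and Cyp21a1 at 1.08 ± 0.22 closed the order.

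In KO testes Cyp21a1 and Lhcgr had changed places in the order, and some neighbours overlapped differently. Hsd3b1, at 72.1 ± 16.9 CPM per kb (SD, n = 4), overlapped Cyp17a1 at 78.0 ± 21.9 and no longer overlapped Hsd3b6 at 19.8 ± 6.37. Cyp21a1, at 4.56 ± 1.32 CPM per kb, lay above Lhcgr at 1.99 ± 0.698, with no overlap between their libraries. From Hsd3b6 down to Nr5a1, each gene overlapped its neighbour in the order. The exons of Insl3 are shared on the same strand with Jak3 over 64.8% of their length, so its level depends on how the counting divided those reads.

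**Figure D1:**
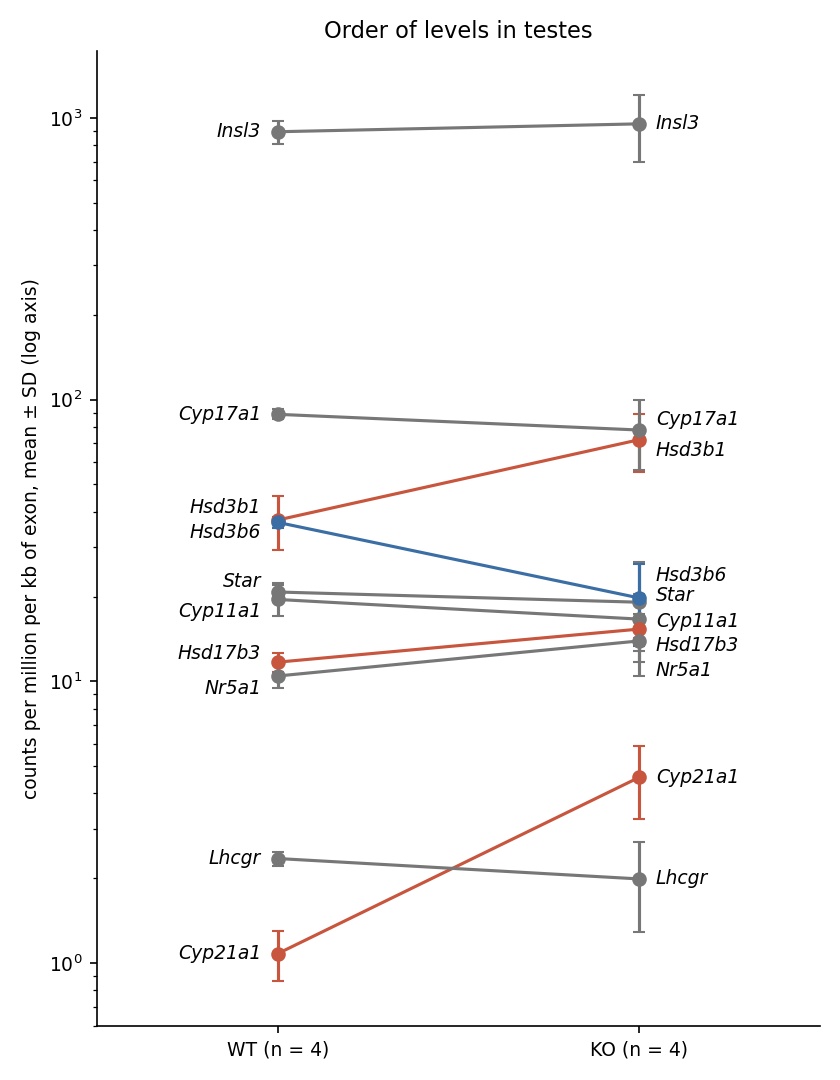
Mean level of each gene in WT and KO testes in counts-per-million per kb of exon, on a log axis, with SD over 4 libraries. Red lines mark the genes called higher in KO, the blue line Hsd3b6, which was called lower, and grey lines the others. Hsd3b1 and Hsd3b6 start together in WT and lie apart in KO, and Cyp21a1 and Lhcgr change places.

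Summed over the 10 genes, the order of the genotypes rested on 1 library. The sum was 1198 ± 45.1 CPM in WT (SD, n = 4), with a range of 1159 to 1260 CPM, and 1243 ± 314 CPM in KO, and Insl3 alone made up 43.8% to 49.8% of it in WT and 46.0% to 50.2% in KO. KO replicate 7 stood at 1713 CPM, and the other 3 KO libraries, at 1071 to 1100 CPM, were all below the WT libraries. Without it the KO mean was 1086 ± 14.7 CPM (SD, n = 3). That library was the highest KO library for 9 of the 10 genes, all but Cyp21a1.

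KO and WT testes were then compared across all genes with limma, on log2 CPM. Of the 10 genes, 3 rose (Cyp21a1, Hsd3b1 and Hsd17b3), 1 fell (Hsd3b6) and 6 did not pass an adjusted p of 0.05. Among all 19329 genes tested 20.5% passed, 9.74% higher and 10.7% lower in KO. Among the 10, in these 4 alone the CPM ranges of both genotypes were separate, as they were in 28.6% of all genes tested. The median log2 change of the 10 genes was -0.02, beside 9.7e-05 over all genes tested.

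**Figure D2:**
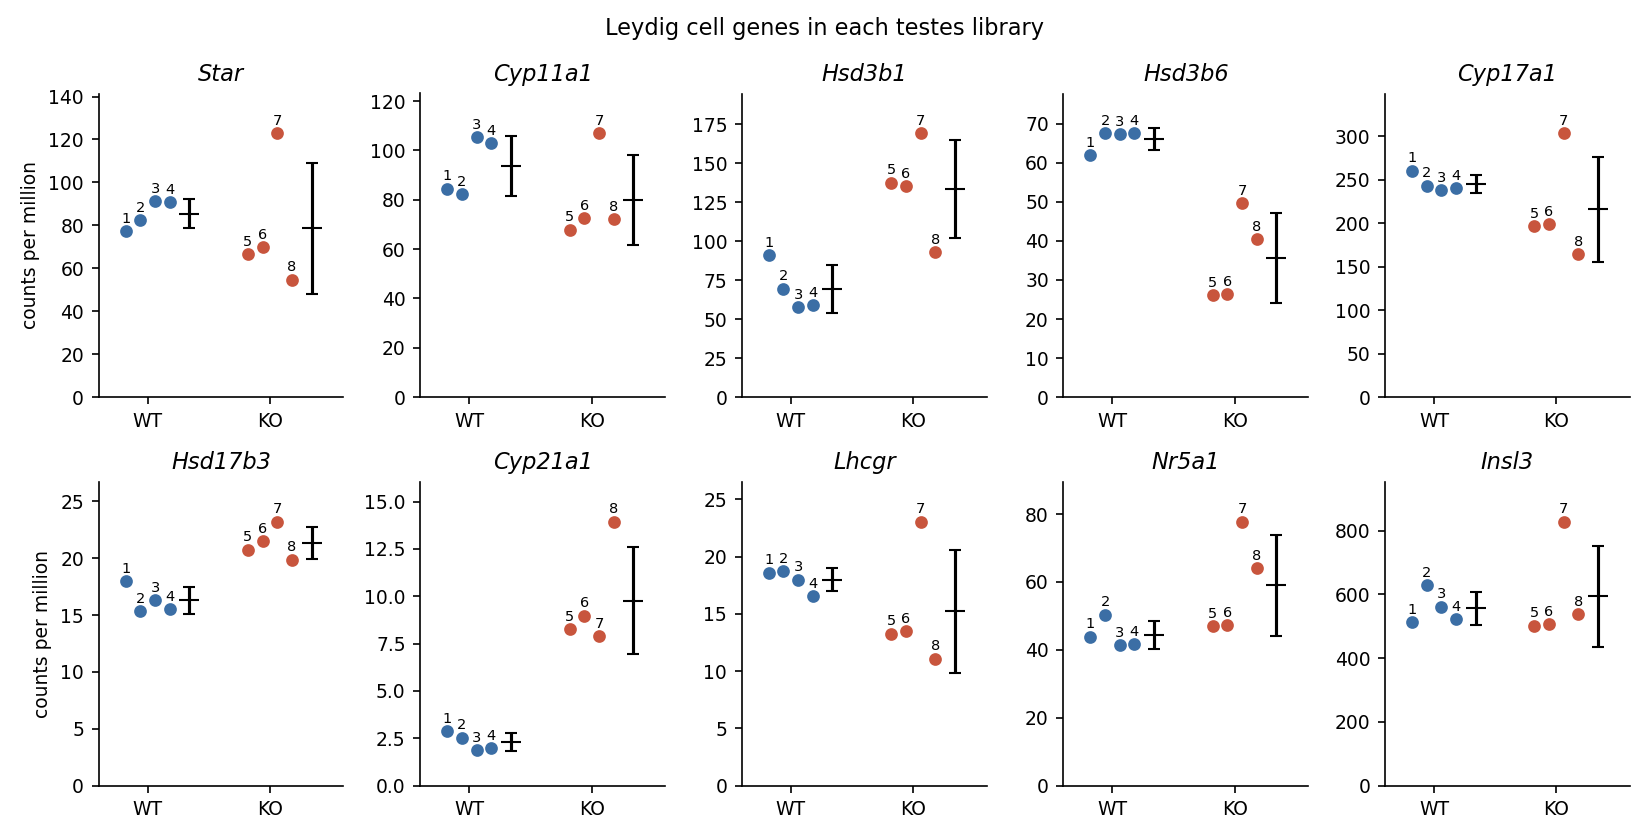
Counts-per-million of the 10 genes in the 4 WT (blue) and 4 KO (red) testes libraries, each point labelled with its replicate number, with mean and SD in black. The groups are separate for Hsd3b1, Hsd3b6, Hsd17b3 and Cyp21a1, and KO replicate 7 is the highest KO library in every panel except Cyp21a1.

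The clearest contrast lay between the 2 genes for 3-beta-hydroxysteroid dehydrogenase, the enzyme that turns pregnenolone into progesterone. Hsd3b1 and Hsd3b6 are neighbours on the minus strand of chromosome 3 (mm10), at 98852194 to 98859794 and 98805504 to 98814443. Their coding sequences are both 1119 bases long and identical at 1007 of these (90.0%), with a longest identical run of 72 bases. Of the 50-base stretches of Hsd3b6 transcripts, 15.7% occur in another gene, mostly Hsd3b2 and Hsd3b3, and 2.11% occur in Hsd3b1. Coding positions 55 to 114 are shown because they hold many of the differences by which reads are assigned to either gene, with the 14 differing bases in capitals (5′ to 3′, GENCODE M21 transcripts).
Hsd3b1, chr3:98857851-98857910, minus strand: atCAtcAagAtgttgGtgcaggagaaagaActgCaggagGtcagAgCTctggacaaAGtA
Hsd3b6, chr3:98810933-98810992, minus strand: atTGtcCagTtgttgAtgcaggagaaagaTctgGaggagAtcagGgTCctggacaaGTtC

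Hsd3b1 stood at 90.8, 69.6, 57.9 and 59.0 CPM in WT replicates 1 to 4 and at 138, 135, 169 and 92.9 CPM in KO replicates 5 to 8. Every KO library was above every WT library, although KO replicate 8 exceeded WT replicate 1 by little. The log2 change was 0.94 ± 0.181 (SE; limma adjusted p = 0.0070). Hsd3b6 went the other way. It stood at 61.9, 67.6, 67.3 and 67.6 CPM in WT and at 26.1, 26.4, 49.6 and 40.5 CPM in KO, again with no overlap. The log2 change was -0.99 ± 0.161 (SE; limma adjusted p = 0.0038). Hsd3b2 and Hsd3b3, the copies with which Hsd3b6 shares most sequence, held 0.154 CPM or less on average in either genotype.

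As a share of the counts of both genes, Hsd3b6 made up 40.5%, 49.2%, 53.7% and 53.4% in the WT libraries. In the KO libraries its share was 15.9%, 16.3%, 22.7% and 30.4%. The mean went from 49.2% ± 6.14 to 21.3% ± 6.76 (SD, n = 4 each), a difference of -27.9 percentage points (exact permutation test, two-sided, p = 0.0286, the smallest that 4 against 4 libraries can give). This share lies within a library and does not depend on scaling between libraries. The sum of both genes was 125 to 153 CPM in WT and 133 to 219 CPM in KO, and these ranges overlapped. Both calls and the direction of the share held under each alternative run, and the rise of Hsd3b1 was smallest when libraries were scaled to Sertoli cell markers (log2 change 0.50, adjusted p = 0.0261).

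**Figure D3:**
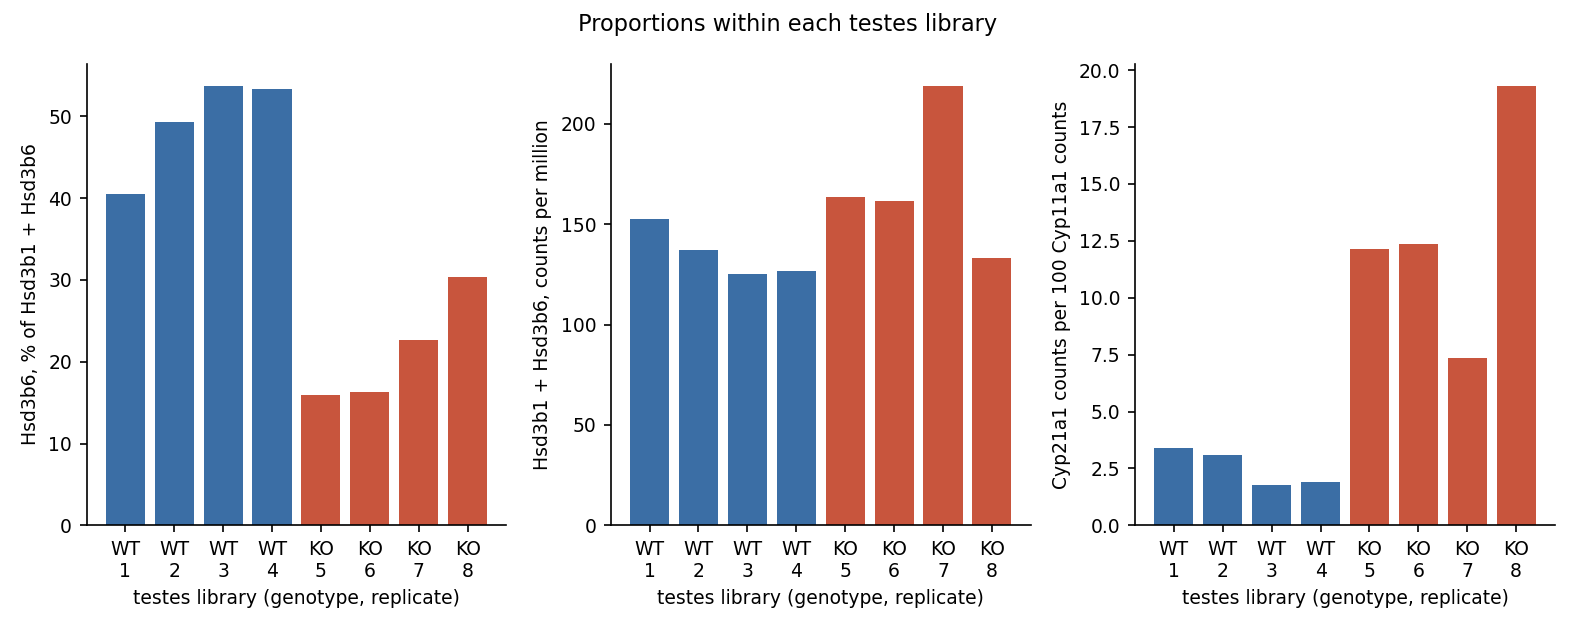
For each testes library, the counts of Hsd3b6 as a percent of Hsd3b1 plus Hsd3b6, the sum of both in counts-per-million, and the counts of Cyp21a1 per 100 counts of Cyp11a1. All bars start at 0. The Hsd3b6 share is 40.5% or more in each WT library and 30.4% or less in each KO library, the sums overlap, and the Cyp21a1 proportion is 3.39 or less in WT and 7.37 or more in KO.

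Cyp21a1, the steroid 21-hydroxylase of the adrenal cortex, had the largest rise of the 10. It stood at 2.86, 2.54, 1.87 and 1.98 CPM in WT and at 8.25, 8.98, 7.89 and 13.9 CPM in KO. The KO libraries were all far above the WT libraries, and KO replicate 8 was the highest. The log2 change was 1.93 ± 0.218 (SE; limma adjusted p = 0.0015), a 3.82-fold rise. Set against Cyp11a1 in the same library, there were 2.54 ± 0.816 counts of Cyp21a1 per 100 counts of Cyp11a1 in WT and 12.8 ± 4.92 in KO (SD, n = 4). The call held under all 16 alternatives. The log2 change ran from 1.59 to 2.05 in 15 of them and was 3.15 in a single fit over all 24 libraries.

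The locus of Cyp21a1 makes its count less certain than those of the other enzymes. The gene lies on the minus strand of chromosome 17 (mm10), at 34801348 to 34804561, and has a pseudogene copy, Cyp21a2-ps, with which it is identical at 97.5% of 1371 aligned bases, with a further 91 positions in gaps. Of its 50-base stretches, 21.3% occur in Cyp21a2-ps, and 102 of its exonic bases overlap Tnxa on the other strand. The stretch below shows a few of the differing bases, in capitals, on both sides of a shared run (5′ to 3′, GENCODE M21 transcripts).
Cyp21a1, chr17:34801796-34801855, minus strand: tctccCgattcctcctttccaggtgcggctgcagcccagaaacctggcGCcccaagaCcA
Cyp21a2-ps, chr17:34719838-34719897, minus strand: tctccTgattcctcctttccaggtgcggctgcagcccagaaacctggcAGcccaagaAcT
The pseudogene held 2.08 to 3.11 counts in the WT testes libraries and 0 to 4.07 counts in KO. Tnxa held 2.39 to 7 counts in WT and 4.33 to 6.34 in KO. Cyp21a1 itself held 56 to 403 counts per library. Of other genes known from the adrenal cortex, the enzymes Cyp11b1 and Cyp11b2 had at most 1 count in any testes library, and Mc2r, the receptor for the pituitary hormone that drives the adrenal cortex, at most 3. Others were above the floor of 3 counts. Mrap stood at a mean of 3.62 CPM in WT and 3.59 CPM in KO, and Nr0b1 at 16.9 and 21.9 CPM, and neither passed the test (limma adjusted p = 0.520 and 0.0880).

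Hsd17b3, which makes testosterone from androstenedione in the last step, rose slightly. It stood at 17.98, 15.4, 16.3 and 15.5 CPM in WT and at 20.8, 21.5, 23.2 and 19.9 CPM in KO, without overlap. The log2 change was 0.29 ± 0.0725 (SE; limma adjusted p = 0.0187). This call was the least stable of the 4. It was lost when WT replicate 2, 3 or 4 was left out (adjusted p = 0.0557, 0.0537 and 0.069) and when the closest libraries were summed (0.0828). The log2 change stayed at 0.26 to 0.30 in these 4 fits, in which fewer genes were called overall. Scaled to Sertoli cell markers, which moved the median of all genes to -0.37, the log2 change was -0.05 (adjusted p = 0.740).

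The early steps of the pathway did not pass the test, and their values were lower in most KO libraries than in WT. Star stood at 77.2, 82.3, 91.3 and 90.7 CPM in WT and at 66.7, 69.8, 123 and 54.8 CPM in KO. Cyp11a1 stood at 84.5, 82.2, 106 and 103 CPM in WT and at 67.9, 72.6, 107 and 72.2 CPM in KO. For both genes 3 KO libraries lay below all WT libraries and KO replicate 7 lay above them. The log2 changes were -0.20 ± 0.199 for Star (SE; limma adjusted p = 0.496) and -0.26 ± 0.136 for Cyp11a1 (adjusted p = 0.189).

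Cyp17a1, whose enzyme makes androgens from progestins, and the hormone receptor Lhcgr had the same arrangement of libraries. Cyp17a1 stood at 260.5, 243, 238 and 240.3 CPM in WT and at 197, 199, 304 and 164 CPM in KO (log2 change -0.17 ± 0.152, SE; limma adjusted p = 0.434). Lhcgr stood at 18.6, 18.7, 17.99 and 16.6 CPM in WT and at 13.3, 13.5, 23.0 and 11.1 CPM in KO (-0.39 ± 0.164; adjusted p = 0.111). KO replicate 7 decided the calls of these 4 genes. Without it Star (-0.46), Cyp11a1 (-0.42), Cyp17a1 (-0.37) and Lhcgr (-0.60) all passed as lower, with adjusted p of 0.0147, 0.0186, 0.0097 and 0.0045. The number of genes called then went from 4 to 8 of 10, 3 higher and 5 lower, while over all genes the calls went from 1882 higher and 2075 lower to 1217 and 1328. The KO replicates left include 5 and 6, which differed by a median of 0.023 on the log2 scale over the 10 genes. No fit without KO replicate 7 also summed these. With the closest libraries summed and KO replicate 7 kept, these 4 genes did not pass (limma adjusted p = 0.714, 0.454, 0.599 and 0.212). Down-weighting divergent libraries called the same 8 genes as without KO replicate 7 in the same directions, while over all genes it called 3014 higher and 3093 lower.

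Nr5a1 and Insl3 did not pass the test either, and their mean values were higher in KO. Nr5a1 stood at 43.9, 50.4, 41.5 and 41.6 CPM in WT and at 47.0, 47.3, 77.8 and 64.1 CPM in KO (log2 change 0.34 ± 0.146, SE; limma adjusted p = 0.119). Its KO libraries 5 and 6 lay inside the WT range and 7 and 8 above it, and without KO replicate 5 it passed (0.44, adjusted p = 0.0375). Insl3 stood at 513, 628, 562 and 523 CPM in WT and at 502, 506, 828 and 537 CPM in KO (0.14 ± 0.148; adjusted p = 0.524), and without KO replicate 7 its change was -0.05. Jak3, which shares exons with Insl3, had a log2 change of -0.10 (adjusted p = 0.445).

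**Figure D4:**
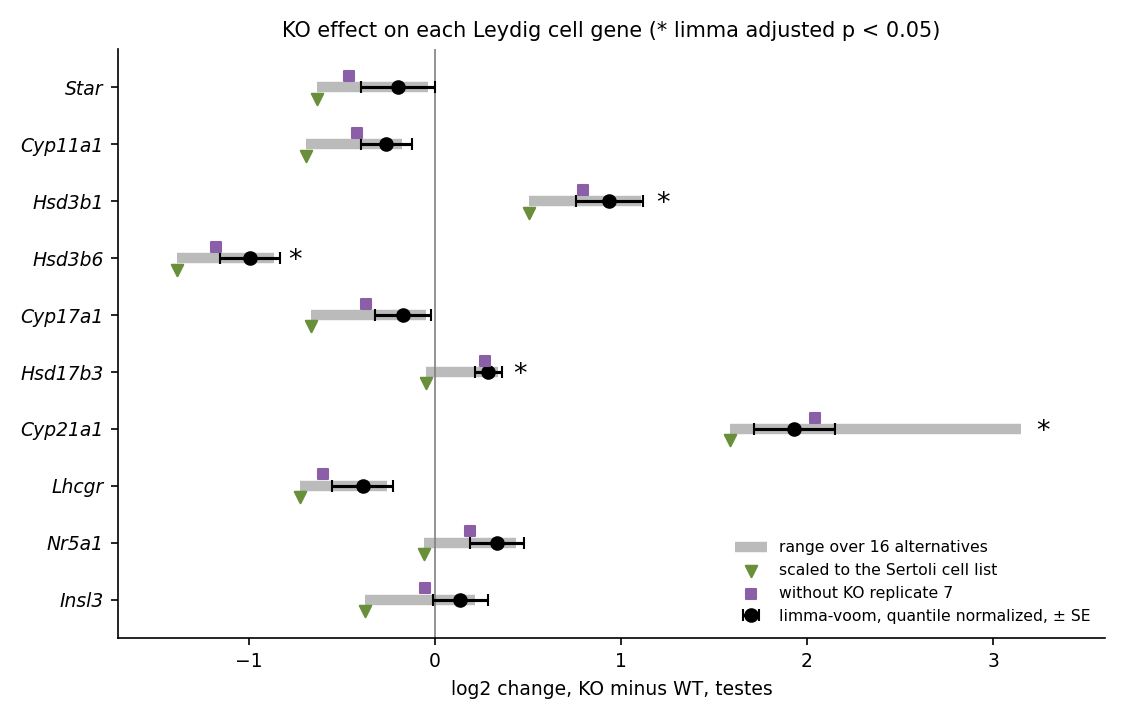
Log2 change (KO minus WT) of each gene in testes with its SE from limma-voom after quantile normalization (black), the range over 16 alternatives (grey bars), the value scaled to the Sertoli cell list (green triangles) and the value without KO replicate 7 (purple squares). Stars mark an adjusted p under 0.05. Hsd3b6 stays below 0 and Hsd3b1 and Cyp21a1 stay above 0 over the whole range. Hsd17b3 and Nr5a1 lie below 0 only when scaled to the Sertoli cell list, which moved the median of all genes to -0.37.

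Scaling to the summed counts of the 25 Sertoli cell markers asks how the genes moved relative to that sum. Clu alone averaged 807 CPM in WT and 1068 CPM in KO, where the markers summed to 1815 to 2062 and 2330 to 3244 CPM. All 25 markers had log2 changes above 0 before this scaling. The scaling shifted the median log2 change of all genes to -0.37 and split the calls over all genes into 113 higher and 9502 lower, beside 1882 and 2075 without it. Relative to the sum of these markers, Star (-0.63), Cyp11a1 (-0.69), Cyp17a1 (-0.66), Lhcgr (-0.73), Insl3 (-0.38) and Hsd3b6 (-1.39) passed as lower, and Hsd3b1 and Cyp21a1 stayed higher. The value of Insl3 was close to this shift itself.

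Proportions within a library were examined as well, since these need no scaling. The log2 ratio of each of the other 9 genes to Cyp11a1 was compared between genotypes by an exact permutation test, two-sided, adjusted over the 9 ratios. In 5 ratios both genotypes had separate ranges, those of Cyp21a1 (KO minus WT 2.31), Hsd3b1 (1.19), Hsd17b3 (0.64), Nr5a1 (0.63) and Hsd3b6 (-0.70). Over all other genes tested, 17.7% of 19328 ratios to Cyp11a1 had separate ranges. Each of the 5 reached an exact p of 0.0286, the smallest of this design, and an adjusted p of 0.0514, so 0 of 9 passed the threshold. The ratios of Star (0.06, exact p = 0.686), Cyp17a1 (0.02, p = 0.971) and Lhcgr (-0.05, p = 0.771) differed by less than their spread between libraries. Insl3 lay between (0.31, exact p = 0.114). With Cyp17a1 as the reference, the ranges of Hsd3b6 overlapped (-0.72, exact p = 0.0571, adjusted p = 0.103).

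Epididymal transcripts were present in some testes libraries. Crisp1, a sperm-coating protein of the epididymis, stood at 0.0623, 95.2, 0.401 and 0.157 CPM in WT and at 23.7, 22.8, 13.3 and 18.3 CPM in KO. Adam7 and Spink8 were likewise high in WT replicate 2 and in all KO libraries, while Lcn5 and Lcn8 were at 0 counts in all 8. Cst8 and Rnase10 did not have this arrangement (log2 change -0.19 and -0.25, limma adjusted p = 0.252 and 0.247). Of 10 markers 5 were tested and 2 called higher (Adam7 4.45 and Crisp1 3.86), and the list summed to 147 to 254 CPM in WT and 125 to 186 CPM in KO. Most of that sum was Cst8, at 129 to 147 CPM in WT and 103 to 149 CPM in KO. Without Cst8 the list summed to 125 CPM in WT replicate 2, to 4.78 to 5.85 CPM in the other WT libraries and to 22.7 to 36.8 CPM in KO. In WT replicate 2, with the most Crisp1, Cyp21a1 and Hsd3b1 were within the range of the other WT libraries, at 2.54 and 69.6 CPM. Hsd3b6 was at 67.6 CPM there, as in WT replicate 4. Nr5a1, Insl3 and Lhcgr were highest of the WT libraries in WT replicate 2, and Hsd17b3 and Cyp11a1, the reference of the ratios above, were lowest. The part of epididymal RNA in the values of the 10 genes was not tested.

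Other genes of the pathway and of its cells were counted from lists drawn up by function. Of 16 genes of cholesterol supply and transport, 2 rose and 1 fell (median log2 change 0.03). Soat1, which stores cholesterol as esters, averaged 100.4 ± 6.20 CPM in WT and 132 ± 11.2 in KO (SD, n = 4) and rose by 0.40 (adjusted p = 0.0062), and the cholesterol exporter Abca1 rose by 0.42 (adjusted p = 0.0150). Lipe, the lipase that frees cholesterol from its esters, fell by 0.20 on the log2 scale (adjusted p = 0.0236). Of 8 electron donors 1 fell and 0 rose. This was Fdx1, the ferredoxin that supplies electrons to Cyp11a1, which went from 29.4 ± 2.80 to 25.0 ± 3.07 CPM (-0.32, adjusted p = 0.0439).

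Among other steroid converting enzymes, 12 of the 22 in the table were tested, of which 2 rose and 1 fell. Hsd17b11, a dehydrogenase of lipid droplets, averaged 7.61 ± 0.49 CPM in WT and 12.2 ± 1.71 in KO (SD, n = 4) and rose by 0.57 on the log2 scale (adjusted p = 0.0045). Sult1e1, the estrogen sulfotransferase of Leydig cells, went from 12.7 ± 1.81 to 19.7 ± 3.39 CPM (0.53, adjusted p = 0.0153). Cyp19a1, the aromatase that makes estrogen, went from 4.65 ± 0.322 to 3.97 ± 0.192 CPM (-0.35, adjusted p = 0.0424).

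The list of hormone receptors and signalling had the most calls of the pathway lists, 7 higher and 1 lower of 25 tested (32.0%, median log2 change 0.20). Pdgfra, a growth factor receptor of Leydig cell progenitors, averaged 21.5 ± 2.09 CPM in WT and 41.8 ± 7.36 in KO (SD, n = 4) and rose by 0.87 on the log2 scale (adjusted p = 0.0018). The receptor Igf1r rose by 0.75 (adjusted p = 0.0071) and its ligand Igf1 by 0.57 (adjusted p = 0.0023). Amhr2, the receptor for anti-Müllerian hormone, rose by 0.50 (adjusted p = 0.0107). Dhh stands in this list and in that of Sertoli cells.

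Of 18 transcription factors of steroid producing cells tested, 2 rose, among them Gata6 (log2 change 0.28, adjusted p = 0.0368), and 0 fell. The median of that list was 0.25. Of 14 other Leydig cell markers 2 rose, Bhmt (92.4 ± 11.2 to 147 ± 25.98 CPM, SD, n = 4; 0.66, adjusted p = 0.0064) and Tspan7 (0.49, adjusted p = 0.0421), and 0 fell, with a median of 0.10. Of 7 fetal Leydig cell and adrenal type genes tested 1 fell, Pcolce2 (-0.84, adjusted p = 0.0161), and 0 rose. The share called was 11.1% to 32.0% in the 7 pathway lists, beside 20.5% of all genes tested.

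Cell type lists were counted beside these values. In the Sertoli cell list, with a median log2 change of 0.43, Shbg (0.67) and Ctsl (0.57) had the lowest adjusted p, 0.0037 and 0.0044. Elongating spermatid markers were lower for 9 of 20, with the lowest adjusted p for Fscn3 (-0.37) and Oaz3 (-0.35). Among round spermatid markers the adjusted p was lowest for Tssk6 (-0.43) and Spaca4 (-0.51). Spermatocyte markers fell for 2 of 19 (Ccna1 and Spag6, both -0.21), and spermatogonia markers rose for 2 of 16 (Zbtb16 0.72 and Lin28a 0.39). Of the other cells between the tubules, myoid cells had 1 call each way of 11 (Mylk 0.28, Actg2 -0.35), endothelial cells 1 lower of 10 (Egfl7 -0.30) and macrophages 2 higher and 1 lower of 11 (Mrc1 0.35, Aif1 -0.33). The part of these cells in the values of the Leydig cell genes was not tested.

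**Figure D5:**
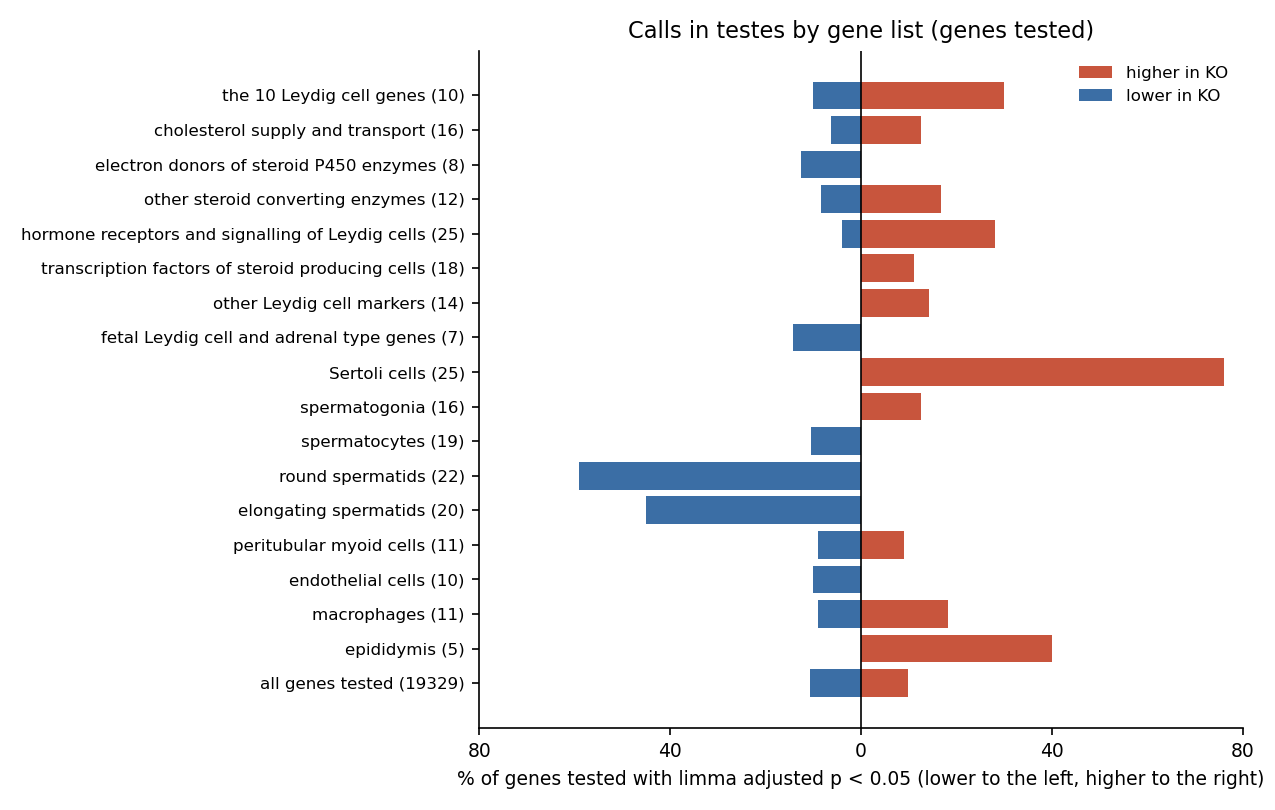
Percent of the genes tested in each list that were called in testes (limma adjusted p under 0.05), higher in KO to the right and lower in KO to the left, with the number tested in brackets. Sertoli cell markers reach 76.0% higher and round spermatid markers 59.1% lower, and all genes tested lie at 9.74% and 10.7%.

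The genes whose pattern over the 8 testes libraries was most like that of Cyp21a1 were Asprv1, Cnga3, Tmprss13, Col11a1 and Padi2. Likeness was the root mean square difference of log2 CPM after centring on the WT mean, and ran from 0.29 for Asprv1 to 0.55 for Padi2 among 14269 genes with an average of 1 CPM or more and no library at 0. From WT to KO, Asprv1 went from 0.466 to 2.14 CPM, Cnga3 from 0.974 to 4.09, Tmprss13 from 0.662 to 2.02 and Padi2 from 3.75 to 10.3 on average. The average of the filter was taken over both genotypes, so Asprv1, Cnga3 and Tmprss13 passed it only through their KO libraries. For the mean pattern of the other 9 genes, the nearest were Rnh1, Hist1h4f, Tmem86a, Ces1d and Ndufs8, with differences of 0.05 to 0.07. Of these 10 genes, 0 are on the lists used here.

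Promoters from RefSeq (GRCm38.p6, 250 bases before to 50 after a start) were at hand for 6 of the 10 genes, with 7 starts. The motif AAGGTCA, the core that Nr5a1 binds, was found on either strand in 0 of these 7 and in 4.72% of all 32851 promoters. The shorter AGGTCA, which every AAGGTCA contains, was found in 2 of the 7, in Cyp11a1 and in Lhcgr, and in 16.3% of all promoters. These matches describe only the letters in the window.

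In liver most of the 10 genes were near 0, and 2 passed the filter on low values. Cyp17a1 stood at 2.42, 2.23, 3.95 and 2.59 CPM in WT and at 5.51, 5.46, 6.81 and 6.05 CPM in KO. All KO libraries were above all WT libraries. The gene rose by a log2 change of 1.09 ± 0.175 (SE; limma adjusted p = 0.0061), against 5.91% of 12816 genes called in liver, and the call held under every alternative run. The effect was in the other direction from the value in testes, and the difference between the tissues was -1.51 ± 0.296 (SE; limma interaction, adjusted p = 0.0051), with 9.85% of 11611 genes called. The part of sex in the liver values was not tested. Star stood at 1.33, 1.23, 1.31 and 2.41 CPM in WT liver and at 0.601, 0.937, 1.16 and 0.76 CPM in KO, without overlap. Its log2 change of -0.88 did not pass (adjusted p = 0.115), also without WT replicate 4 (-0.68, adjusted p = 0.140).

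A few liver libraries held transcripts of steroid producing cells. WT replicate 4 had 91 counts of Cyp11a1, 102 of Hsd3b1 and 26 of Lhcgr, where the other liver libraries had at most 6, 18 and 0. WT replicates 1 and 2 had 34.6 and 27.1 counts of Cyp21a1 and 14 and 6 counts of the adrenal enzyme Cyp11b1, which was at 0 in the other 6. Hsd17b3 was at 0 counts in all 8 liver libraries, and Hsd3b6 at 1.01 counts or less. Cyp21a2-ps held 56.5 to 161 counts in each liver library, in contrast to testes.

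In cerebellum Star stood at 3.21 to 4.00 CPM in WT and at 2.96 to 4.41 CPM in KO, and Cyp11a1 at 1.80 to 2.38 CPM and 1.99 to 2.53 CPM. The groups overlapped for both, and 0 of these 2 tested genes were called by limma or at an unadjusted p under 0.05, by edgeR or by DESeq2, beside 6.44% of 16225 genes. The difference of the KO effect from that in testes did not pass either, for Star (-0.30 ± 0.431, SE; adjusted p = 0.664) or Cyp11a1 (-0.49 ± 0.348; adjusted p = 0.343), with 19.5% of 13753 genes called. Hsd3b1, Hsd3b6, Hsd17b3 and Cyp21a1 were at 0 counts in all 8 cerebellum libraries, and a count of 0 allows at most 0.121 to 0.183 CPM there (3 counts of the total, counting error only).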

How the data were processed

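The authors aligned reads from stranded, ribosome-depleted libraries with STAR to mm10, counted them with RSEM on GENCODE M21 and deposited expected counts per gene, not normalized. Versions and the strand setting are not given in the sources used here. Groups came from the labels, and 0 value columns were unmatched. The 10 genes and all lists were chosen with earlier results of these data known.

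Per tissue, genes with at least 1 CPM in at least 4 libraries were quantile normalized and compared with voom and limma 3.58.1 (R 4.3.3), with Benjamini-Hochberg adjustment over all genes tested and a threshold of 0.05. Tissue differences used TMM factors and an interaction over 16 libraries. Alternatives were TMM, edgeR 4.0.16 and DESeq2 1.42.0 on rounded counts, no filter, quality weights, one fit over 24 libraries, Sertoli cell scaling, each library left out and, chosen after seeing the data, the closest libraries summed. Exact tests used scipy 1.17.1. The fits were tested on simulated data. Named besides the 10 genes are those with the lowest adjusted p of each list (up to 4, or 2 for cell types) and the 5 nearest in pattern. Jak3, Cyp21a2-ps, Tnxa, Hsd3b2, Hsd3b3, Dhh, Mrap, Nr0b1, Spink8, Cst8, Rnase10 and markers at or near 0 were named outside this rule, after their values were seen. One list gene under this rule is not reported here.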

Additional observations from a re-analysis of the deposited data

Results flagged for a closer look

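Of 40 groups of 4 libraries in which one of the 10 genes had more than 3 counts, 7 held a library far from the other 3 by Dixon's test. Chance gives about 1 in 20. In liver WT replicate 4 stood apart for 4 genes, with Star at 2.41 CPM against 1.23 to 1.33, Cyp11a1 at 3.37 against 0 to 0.186, Hsd3b1 at 3.78 against 0 to 0.583 and Lhcgr at 0.963 against 0. In testes KO replicate 7 stood apart for Cyp11a1, at 107 CPM against 67.9 to 72.6, and for Insl3, at 828 CPM against 502 to 537. Hsd3b6 in testes WT replicate 1, at 61.9 CPM against 67.3 to 67.6, was flagged because the other 3 libraries were almost equal.

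The KO effect on Cyp17a1 differed between testes and liver by -1.51 on the log2 scale (limma interaction, adjusted p = 0.0051). All 4 KO liver libraries were above the 4 WT libraries, while in testes 3 of 4 KO libraries were below them. Liver WT replicate 4 was within the range of the other WT libraries for Cyp17a1.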

How the results depend on the processing

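The number of the 10 genes called in testes was 4 and stayed within 3 to 5 except with sample quality weights, with scaling to the Sertoli cell list and without KO replicate 7, each of which gave 8. Leaving out 1 library gave 3 to 8. Over all genes, 1882 higher and 2075 lower calls in testes became 3014 and 3093 with quality weights, 788 and 930 with the closest libraries summed, and 756 and 968 without WT replicate 4, and also moved by over 1.5 times without WT replicate 2 or 3 or KO replicate 7. In liver 357 and 400 became 664 and 744 with DESeq2, 232 and 282 with no filter and 77 and 82 with libraries summed, and 132 and 152 without WT replicate 1, and moved by over 1.5 times without WT replicate 2 or 3 or KO replicate 8. In cerebellum 638 and 407 became 1204 and 1113 without KO replicate 6 and 300 and 117 without WT replicate 1, 445 and 236 with no filter, 703 and 626 with DESeq2, and moved by over 1.5 times without any other library but WT replicate 2. In liver 1 gene and in cerebellum 0 genes of the 10 were called under each alternative. The 0 of 9 ratios past the threshold stayed 0 with Cyp17a1 as the reference or with the closest libraries summed, where 3 against 3 cannot go below an exact p of 0.1. The Hsd3b6 share differed by -30.9 to -26.1 percentage points with 1 library left out and by -24.7 with those libraries summed, and the exact p of 0.0571 and 0.1 are the smallest that these designs allow.

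Scaling to the Sertoli cell list moved the median of all genes to -0.37, and with it Hsd17b3 (-0.0474), Nr5a1 (-0.0548) and Insl3 (-0.376) came to lie below 0 in testes. Other signs turned without such a shift. Insl3 was below 0 with quality weights (-0.0304) and was in a range of -0.0521 to 0.218 with 1 library left out. Star in cerebellum was at 0.00492 with TMM, 0.0218 with edgeR and 0.0216 with DESeq2, and at -0.0842 to 0.0886 with 1 library left out. The log2 ratios to Cyp11a1 with 1 library left out ran from -0.0298 to 0.170 for Star, from -0.0490 to 0.103 for Cyp17a1 and from -0.137 to 0.0430 for Lhcgr, and summing gave -0.0661 for Cyp17a1. Except where a setting itself removes libraries or rescales them, the cause was not tested.

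No paired analysis was possible within a tissue because WT and KO libraries share no replicate numbers. The numbers recur across tissues, and a fit with the number as a replicate block, chosen after seeing the data, gave a difference of -1.44 (limma adjusted p = 0.00195) for Cyp17a1 in testes against liver, changed no call among the 10 genes and called 1624 genes instead of 1144 against liver and 2622 instead of 2676 against cerebellum. The labels do not say that a number marks 1 animal, and libraries with the same number deviated together with a correlation over 0.1 in 2 of 8 pairs in each of those comparisons. The totals of 27273231 counts or more in testes leave Cyp21a1 as the least deeply counted of the 10 genes, with 56 to 403 counts per library.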
